A study of Homo sapiens with 6 samples.

Results

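Telomerase and shelterin genes were examined in A549 cells, a human lung adenocarcinoma line, after transient silencing of NME2. NME2 encodes a nucleoside diphosphate kinase that also binds DNA and is studied as a metastasis suppressor. The study profiled total RNA on 6 Affymetrix HG-U133 Plus 2.0 arrays. Of these, 3 were of cells given a small interfering RNA (siRNA) duplex against NME2 and 3 of cells given control duplexes. Both groups were thus transfected and differed in the duplex. Silencing was transient, the duplex sequence is not given in the sources used here, and the series text names the arrays of a group as biological replicates without describing their cultures. Members were found by annotation: a probe set, the group of oligonucleotides that measures a transcript, was kept where the platform annotation gave it 1 gene symbol and that symbol was TERT, DKC1, NHP2, NOP10, TERF1, TERF2, TERF2IP, POT1, TINF2 or ACD. This gave 18 of 54613 probe sets and 9 of 10 genes. DKC1 was the exception, because each of its probe sets also carries the symbols of small RNAs encoded within the gene.

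Telomeres are TTAGGG repeats at chromosome ends, and telomerase extends them by copying an RNA template. TERT is the reverse transcriptase of telomerase, and DKC1, NHP2 and NOP10 are proteins of the H/ACA ribonucleoprotein that holds and stabilises its RNA, as they do for many other small nucleolar RNAs. Shelterin covers the repeats: TERF1 and TERF2 bind the double-stranded repeat, POT1 binds the single-stranded overhang, TINF2 bridges the duplex binders, ACD joins POT1 to TINF2 and recruits telomerase, and TERF2IP associates with TERF2. Telomerase is active in most cancer lines, in which TERT messenger RNA is typically scarce whereas the other subunits are widely expressed.

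Array facts that touch all results are brief. Median signals were 75.7 to 85.2 on the 6 arrays. The NME2 probe set, which the annotation shares with the read-through transcript NME1-NME2, gave signals of 1920, 3676 and 3216 on the NME2-depleted arrays against 17862, 19389 and 21044 on the control arrays, a log2 difference of -2.78 (SE 0.19, limma adjusted p = 0.00032). The 5 epithelial markers were bright, with KRT18 at 27676 to 32107. Of 4 alveolar markers 1, the lung lineage factor NKX2-1, was dim on the average of the arrays. By their brightest probe sets SFTPB was at 229.7 to 348.0, NAPSA at 102.3 to 177.0 and SFTPC at 41.5 to 153.8. By their brightest probe sets 2 of 4 leukocyte, 2 of 3 endothelial and 2 of 4 fibroblast markers were dim. By these probe sets PTPRC of leukocytes and CDH5 and VWF of endothelium did not exceed a signal of 34.2. In contrast, CD79A was at 137.3 to 260.9, PECAM1 at 157.8 to 252.0 and CD3E at 49.9 to 120.1. The fainter probe sets of SFTPB, SFTPC, CD79A and PECAM1 were all dim, with those of PECAM1 at up to 61.8 and those of SFTPC at up to 17.4. Of the fibroblast markers COL1A1 was at 328.4 to 586.0 and DCN at 45.4 to 146.6. Summed signals of the leukocyte list were 287.6 to 404.8 on the NME2-depleted and 348.7 to 423.6 on the control arrays, and those of the endothelial list 253.5 to 305.1 and 175.6 to 275.3. Those of the fibroblast list were 546.6 to 759.5 on the NME2-depleted and 470.8 to 598.8 on the control arrays. In all 8 probe sets of 6 interferon-response genes the NME2-depleted arrays lay below the control arrays, and 2 passed. MX1 was at 112.3 to 144.9 against 531.3 to 3299, a log2 difference of -3.01 (limma adjusted p = 0.0379). Control replicate 1 was also far above the rest of its group, with IFIT1 at 5873 against 599.7 and 1126, and without that array MX1 differed by -2.20 (limma adjusted p = 0.00499) and 5 of the 8 passed. The ratio of 3' to 5' signal of ACTB, a sign of RNA quality, was 1.33, 1.34 and 1.40 on the NME2-depleted arrays and 1.20, 1.30 and 1.23 on the control arrays, without overlap. That of GAPDH did overlap, at 1.01, 0.98 and 1.06 on the NME2-depleted and 0.99, 0.97 and 1.02 on the control arrays. The part of the interferon signals or of these ratios in the results below was not tested.

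No telomerase or shelterin transcript that was tested passed for a change when NME2 was silenced, and TERT was too dim to be tested. In bulk RNA a difference in transcript per cell and one in the share of cells that express it cannot be told apart. Of the 18 member probe sets 15, of 8 genes, were bright enough to be tested, which means an average log2 signal no lower than the median over probe sets, equal to a signal of 71.7. Of these 15, 0 passed an adjusted p of 0.05 in limma, where 0.396% of all 27307 tested probe sets passed. By the same fit 0 of 15 had an unadjusted p under 0.05, against 12.9% of all tested, and in 0 of 15 were the groups free of overlap, against 18.6% of all tested. The lowest adjusted p was 0.549 and the lowest unadjusted p 0.139. In NME2-depleted cells 8 of the 15 had a lower mean and 7 a higher one, and their median log2 difference was -0.0010, beside 0.011 over all tested probe sets. After each array was centred on its median 11 were lower and 4 higher. The medians were then -0.05 for the members and -0.04 over all tested probe sets. Arrays number 3 per group, so small differences can be missed. The 95% interval of the difference lay within 1.5-fold in either direction for 11 of the 15, and the other 4 were probe sets of TERF2 and TINF2 that varied more between arrays.

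**Figure D1:**
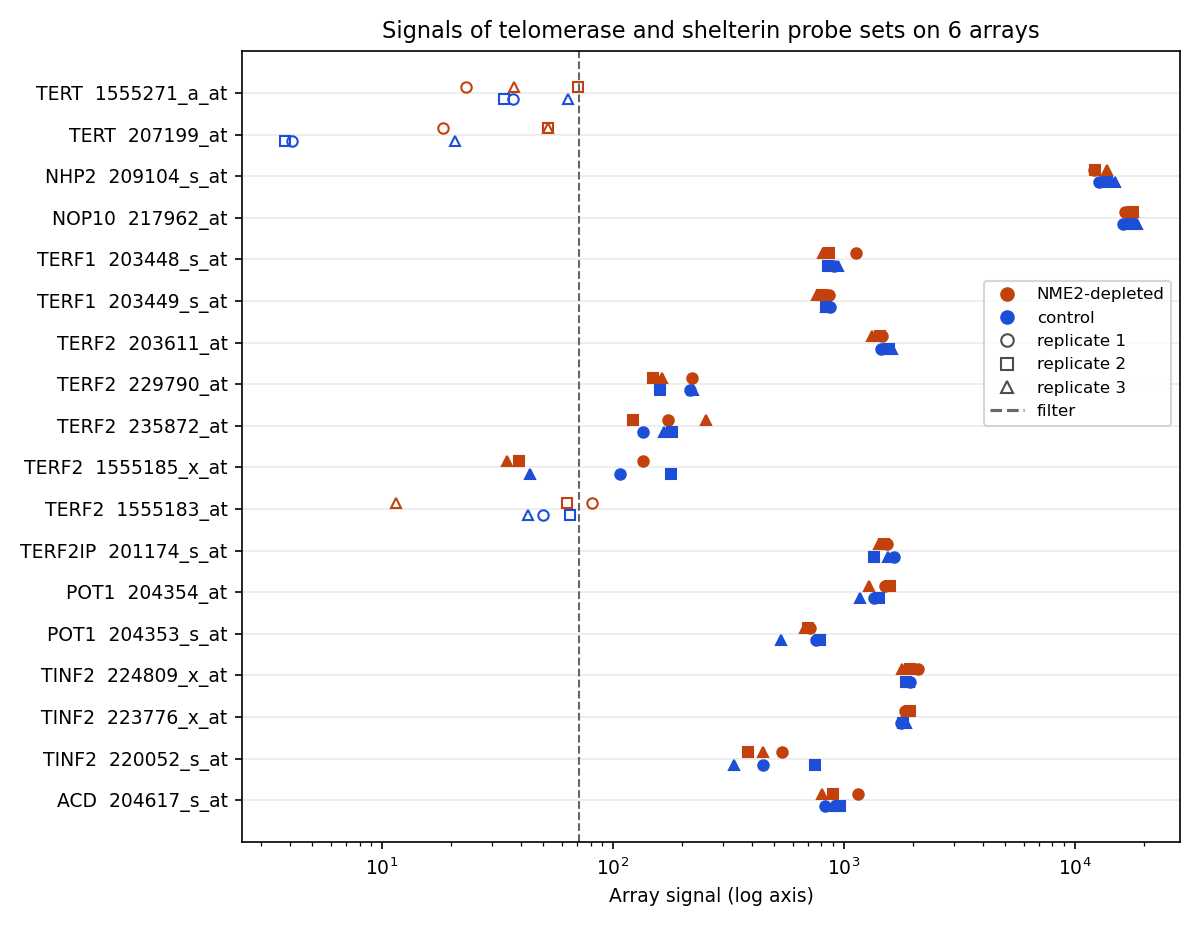
Signal (log axis) of the 18 member probe sets on each of 6 arrays; orange marks NME2-depleted and blue control arrays, marker shapes give the replicate, open markers are probe sets below the filter and the dashed line is the filter at 71.7. NHP2 and NOP10 have signals of 12093 and more on all arrays, and in every probe set the groups overlap.

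TERT was dim by both of its probe sets and therefore entered no test at the main setting. Probe set 207199_at gave signals of 18.3, 52.5 and 52.3 on the NME2-depleted arrays and 4.1, 3.8 and 20.7 on the control arrays. NME2-depleted replicate 1 lay below control replicate 3, so the groups overlapped, and the exact two-sided permutation p was 0.2, where the smallest this design allows is 0.1. The log2 difference was 2.43, and it was 1.15 with an offset of 16 added to every signal, since values this near zero inflate a log ratio. When every probe set was tested without the filter, the difference of 2.43 had an unadjusted p of 0.0206 and an adjusted p of 0.441 in limma, with 0.0549% of all 54613 probe sets called. Probe set 1555271_a_at did not share this pattern. Its signals were 23.2, 70.8 and 37.5 on the NME2-depleted arrays and 36.8, 33.8 and 64.1 on the control arrays, a log2 difference of -0.12 (limma adjusted p = 0.975 without the filter). On single arrays the TERT probe sets ranked between the 4.97th and the 48.1st percentile of all signals. Detection calls were not used here, so whether TERT transcript was present cannot be read from these values.

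**Figure D2:**
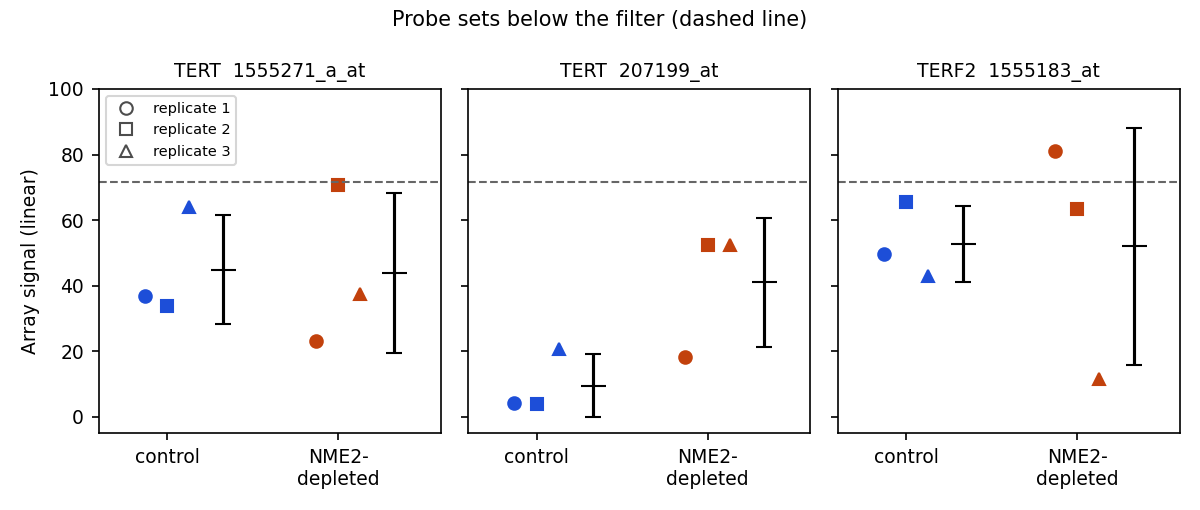
Signals (linear axis) of the 3 member probe sets below the filter; points are arrays, with marker shapes for replicates, and bars give mean and SD of 3 arrays. TERT 207199_at is at 3.8 to 20.7 in control and 18.3 to 52.5 in NME2-depleted cells, whereas TERT 1555271_a_at overlaps widely.

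The small H/ACA proteins NHP2 and NOP10 gave signals above the 98th percentile on every array, although signals of different probe sets cannot be set against each other as transcript levels. NHP2 gave 12093, 12238 and 13810 on the NME2-depleted arrays and 12730, 13818 and 14914 on the control arrays. NME2-depleted replicate 3 lay above control replicate 1, so the groups overlapped. The log2 difference was -0.12 (SE 0.08, 95% interval -0.30 to 0.06, limma adjusted p = 0.574). NOP10 had 16528, 17806 and 17788 in NME2-depleted and 16154, 17460 and 18600 in control cells. These values interleaved fully, with a log2 difference of -0.0010 (SE 0.07, 95% interval -0.16 to 0.16, adjusted p = 0.997).

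The promoters of NHP2 and NOP10 are shown because these are the telomerase subunits with a usable signal, and because E-boxes bound by MYC and related factors, and GC boxes bound by SP1-type factors, are textbook elements of promoters in this pathway. The windows run from 250 bases before to 50 after the start in RefSeq (build GRCh38.p14), and NHP2 lies at chr5:178153836-178154135 and NOP10 at chr15:34343087-34343386, both on the minus strand. Capitals mark the E-box CACGTG, the GC box GGGCGG and 1 telomere repeat unit TTAGGG, each searched on both strands.

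NHP2: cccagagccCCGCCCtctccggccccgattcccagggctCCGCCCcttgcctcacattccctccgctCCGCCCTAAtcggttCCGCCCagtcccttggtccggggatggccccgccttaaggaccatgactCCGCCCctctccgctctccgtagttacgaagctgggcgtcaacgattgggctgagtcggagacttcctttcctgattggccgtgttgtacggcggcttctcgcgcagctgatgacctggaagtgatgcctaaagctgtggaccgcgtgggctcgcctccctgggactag

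NOP10: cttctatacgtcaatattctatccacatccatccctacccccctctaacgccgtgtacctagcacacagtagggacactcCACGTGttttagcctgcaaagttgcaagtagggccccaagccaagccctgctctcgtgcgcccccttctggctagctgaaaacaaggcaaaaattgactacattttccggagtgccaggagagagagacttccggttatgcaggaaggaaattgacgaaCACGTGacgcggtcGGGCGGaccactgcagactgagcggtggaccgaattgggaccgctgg

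NHP2 holds 5 GC boxes, 1 of which overlaps the single telomere repeat unit, and no E-box. NOP10 holds 2 E-boxes and 1 GC box. Promoter windows were found for 8 of the 10 members. All 8 held a GC box, which 44.95% of 35116 RefSeq windows of the same length hold. E-boxes were in 2, NOP10 and TERT, against 7.26% of all windows, and the repeat unit was in 1, NHP2, against 9.05%. Such matches are letters in a window, and binding was not measured on these arrays.

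The 3 probe sets whose annotation lists DKC1 together with the small RNAs SNORA56 and MIR664B fall outside the rule, and that annotation alone does not credit their signals to 1 gene. Probe set 201478_s_at gave 3742, 3184 and 3278 on the NME2-depleted arrays and 4337, 3873 and 3830 on the control arrays. All NME2-depleted values lay below all control values, and the log2 difference was -0.24 (SE 0.08), which did not pass (limma adjusted p = 0.261). The other two, 201479_at and 216212_s_at, overlapped between groups, with differences of -0.02 (adjusted p = 0.939) and -0.06 (adjusted p = 0.836).

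Among the binders of double-stranded repeats, TERF1 was measured by 2 probe sets that gave differences of opposite sign, and neither passed. Signals of 203448_s_at were 1129, 858.7 and 813.7 in NME2-depleted and 904.5, 856.2 and 943.0 in control cells. NME2-depleted replicate 1 was the highest of the 6, and the other two depleted arrays were among the lowest 3, so the difference of 0.04 (SE 0.13, adjusted p = 0.934) became -0.11 without that array. Signals of 203449_s_at were 859.7, 802.6 and 763.3 against 868.0, 837.9 and 840.4, a difference of -0.07 (SE 0.09, adjusted p = 0.802).

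TERF2 was measured by 5 probe sets, and its brightest, 203611_at, had the lowest p of all tested members. It gave 1464, 1437 and 1326 in NME2-depleted and 1453, 1576 and 1613 in control cells, where control replicate 1 fell among the depleted values. The log2 difference was -0.13 (SE 0.09, 95% interval -0.32 to 0.05, limma adjusted p = 0.549), and the exact permutation p was 0.2. The fainter 229790_at had 221.0, 149.1 and 163.1 against 215.6, 160.5 and 223.3 (difference -0.17, adjusted p = 0.79). Probe set 235872_at differed in the other direction, by 0.14 (adjusted p = 0.874), with signals of 173.4, 122.1 and 252.0 against 134.6, 180.1 and 165.8. The difference became 0.39 without NME2-depleted replicate 2 and -0.13 without NME2-depleted replicate 3, which were the lowest and the highest of the 6.

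The least certain value among tested members belonged to TERF2 probe set 1555185_x_at, whose suffix marks oligonucleotides that can bind other transcripts. Its signals of 134.9, 39.1 and 34.7 in NME2-depleted and 107.2, 178.0 and 43.8 in control cells straddled the filter, and the difference of -0.73 had a 95% interval from -2.02 to 0.56 (adjusted p = 0.65). The related 1555183_at was dim, at 81.1, 63.3 and 11.5 against 49.7, 65.5 and 43.0. These faint probe sets varied several times more between arrays of a group than 203611_at did. TERF2IP, the partner of TERF2, had 1537, 1492 and 1412 against 1651, 1345 and 1546. Its difference was -0.03 (SE 0.09, 95% interval -0.24 to 0.18, adjusted p = 0.934).

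POT1 and its partners TINF2 and ACD overlapped between groups as well. POT1 probe set 204354_at gave 1506, 1578 and 1283 in NME2-depleted and 1354, 1416 and 1180 in control cells. Its difference of 0.14 (SE 0.11, 95% interval -0.09 to 0.38, adjusted p = 0.614) was the largest increase in mean among tested members. The other POT1 probe set, 204353_s_at, had 712.5, 698.8 and 678.9 against 753.7, 784.5 and 534.0. There the low control replicate 3 set the sign: the difference was 0.03 (SE 0.14, adjusted p = 0.951) with it and -0.14 without it.

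TINF2, the bridge of shelterin, was measured by 3 probe sets. Signals of 224809_x_at were 2083, 1926 and 1787 against 1939, 1862 and 1915, and those of 223776_x_at were 1843, 1939 and 1879 against 1770, 1803 and 1866. Their differences of 0.02 and 0.06 had 95% intervals of -0.16 to 0.20 and -0.11 to 0.22 (adjusted p = 0.956 and 0.794), among the narrowest here. Both carry the suffix that marks oligonucleotides that can bind other transcripts, so these intervals may not describe TINF2 alone. Probe set 220052_s_at had 539.8, 384.2 and 444.6 against 448.7, 746.7 and 334.9. Control replicate 2 was the highest of the 6 and control replicate 3 the lowest, and the difference was -0.09 (SE 0.25, adjusted p = 0.911), which ran from -0.36 to 0.22 when either was left out.

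ACD had a single probe set, at 1146, 896.6 and 801.0 in NME2-depleted and 828.0, 959.1 and 898.5 in control cells. NME2-depleted replicate 1 was the highest value and replicate 3 of the same group the lowest. The difference was 0.07 (SE 0.13, 95% interval -0.22 to 0.36, adjusted p = 0.871), and the exact permutation p was 0.9. Leaving out those arrays in turn gave -0.08 and 0.18.

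**Figure D3:**
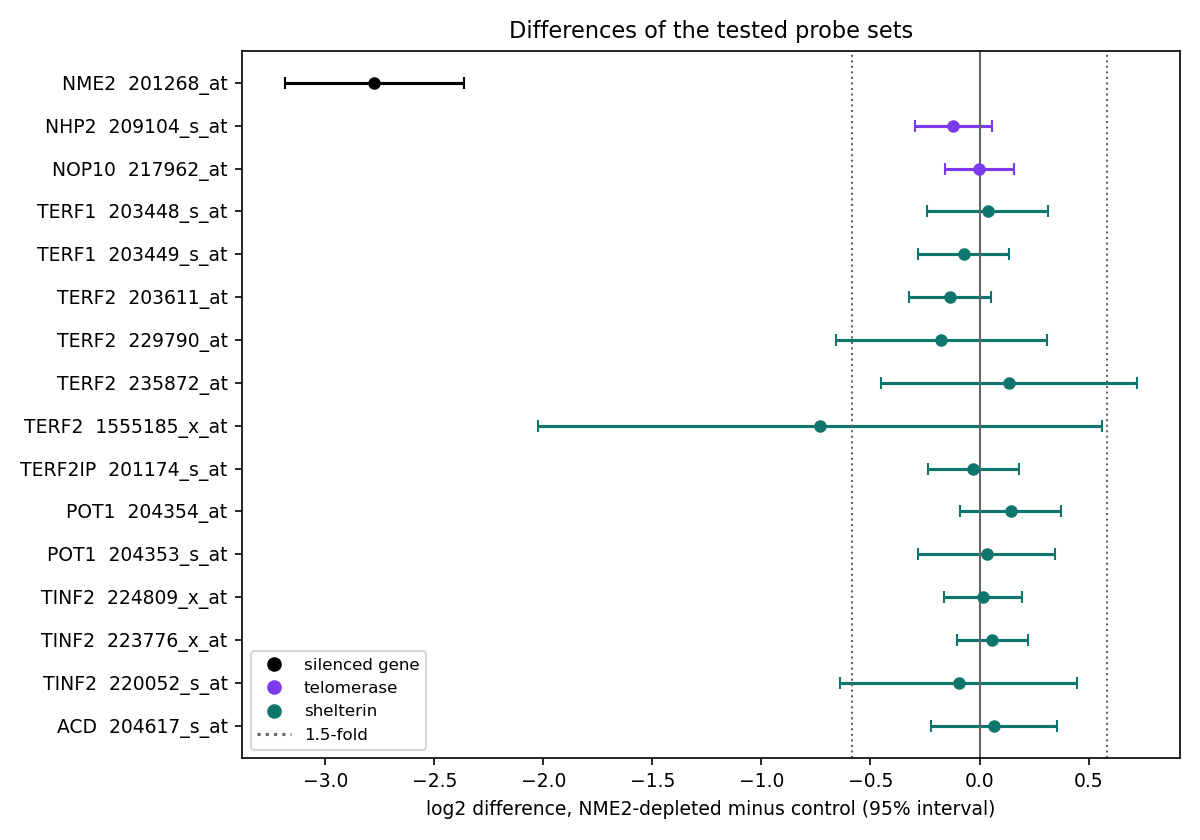
Log2 difference (NME2-depleted minus control) with its 95% interval for the 15 tested member probe sets and for NME2; dotted lines mark a 1.5-fold change. NME2 lies at -2.78, whereas every member interval includes 0 and the widest belongs to TERF2 1555185_x_at.

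The median SE of the tested members was 0.11 against 0.15 over all tested, though that of TERF2 1555185_x_at was 0.59. The median size of the members' differences, sign set aside, was 0.07 against 0.14. The part of signal brightness in these medians was not tested. The order of arrays within the NME2-depleted group was uneven over the member probe sets, several of which measure the same gene. The like count over all tested probe sets was not made, so this order cannot be called particular to the members. NME2-depleted replicate 1 was the highest of its group in 10 of 15 tested member probe sets, and replicate 3 the lowest in 9 of 15, with median deviations from the group mean of 0.06 and -0.08 on the log2 scale. Control arrays showed no such order, each being highest in 3 to 6 of the 15. With an array left out 8 of the 15 changed sign, including NOP10 (-0.05 to 0.05), TERF2IP (-0.11 to 0.04) and TINF2 224809_x_at (-0.04 to 0.07). Without control replicate 1, the array with the highest interferon signals, 0 members passed and the lowest adjusted p was 0.428.

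A wider list of 49 telomere genes was read from the same fit, each gene by its brightest tested probe set, and all 47 with a probe set of 1 symbol were tested. It covered telomerase assembly factors, the CST complex with DNA polymerase alpha, shelterin partners and telomeric chromatin factors. Of the 47 genes 0 were higher and 0 lower at an adjusted p of 0.05, against 0.54% of 12406 tested genes. An unadjusted p under 0.05 was reached by 6, against 15% of all tested genes, and the groups did not overlap in 11, against 20.6%. The median difference was -0.02, beside 0.00064 over all tested genes, and 26 of the 47 had a lower mean.

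By their brightest probe sets, the 6 genes of lowest p in this list included CBX5, the heterochromatin protein HP1 alpha. It had signals of 1973, 1842 and 1703 in NME2-depleted and 2260, 2911 and 2474 in control cells. All its depleted values lay below the control values (difference -0.46, SE 0.10, limma adjusted p = 0.0858), but 2 of its 5 other tested probe sets had the opposite sign. RUVBL1, an ATPase that takes part in telomerase assembly, had a difference of -0.30 (adjusted p = 0.202). ASF1B, a histone chaperone, had -0.46 (adjusted p = 0.314).

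Means were higher in NME2-depleted cells for the other 3 of these genes, and none passed. ERCC1, a nuclease subunit, had a difference of 0.20 (adjusted p = 0.276) and STN1, a CST subunit, one of 0.23 (adjusted p = 0.349). TNKS2, a tankyrase that modifies TERF1, had 0.17 (adjusted p = 0.388), with its 2 other tested probe sets higher too. ERCC1 had 2 other tested probe sets, 1 with a difference of 0.19 (adjusted p = 0.304), whose groups did not overlap, and 1 with -0.10 (adjusted p = 0.822). The other probe set of STN1 had -0.02 (adjusted p = 0.978). The methods' t-test with no adjustment passed 8 of the 47 genes, against 12.9% of all tested genes, and 0 of the 15 member probe sets.

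**Figure D4:**
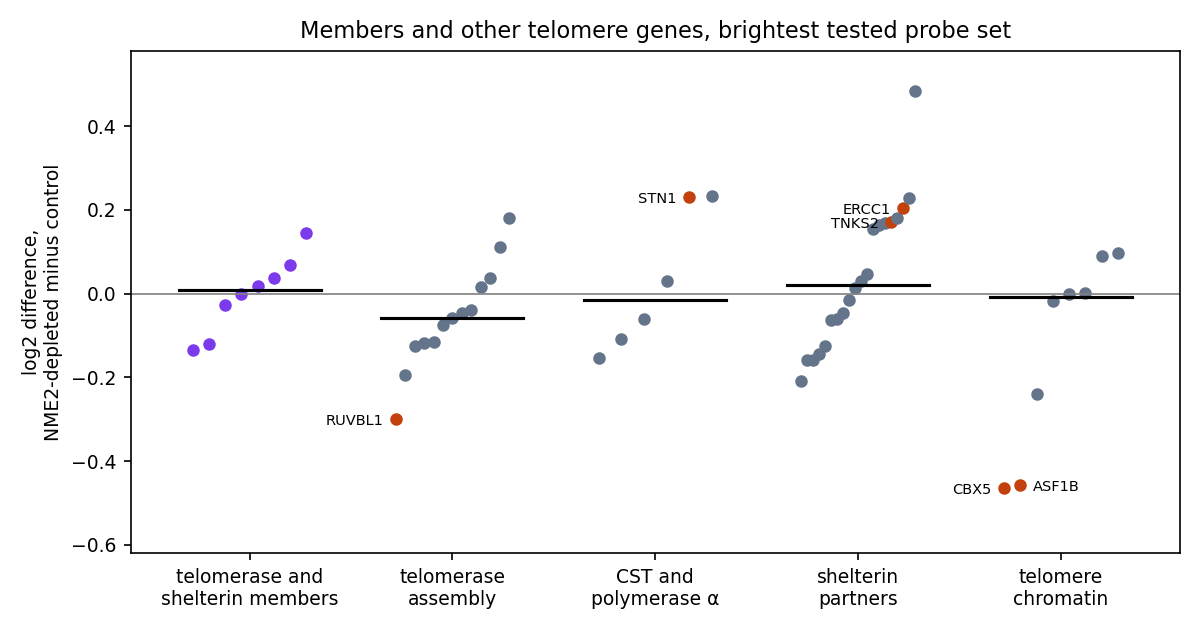
Log2 difference (NME2-depleted minus control) of the 8 tested member genes and of 47 other telomere genes in 4 groups, each by its brightest tested probe set; bars are medians and the 6 genes of lowest p in the wider list are in orange with names. The member genes lie between -0.13 and 0.14, and CBX5 and ASF1B are lowest at -0.46.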

How the data were processed

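Deposited values were linear intensity signals, 1 for each probe set and array, made by the authors with GCOS 1.1.1 according to the submitters' processing notes. Means trimmed by 2% on either side were 500.06 to 500.07, so the authors had scaled the arrays alike. This hides any shift shared by all transcripts. Arrays have no read depth, and their number, 3 per group, limits precision. Groups and replicate numbers came from the titles, and p-values reflect the spread between these arrays, which may be technical.

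Of 54675 probe sets, 62 Affymetrix controls were left out. Signals under 1 were set to 1 (0.327% of values) and log2 was taken. Probe sets at or above the median mean log2 signal were tested across the whole table with limma 3.58.1 in R 4.3.3 (lmFit, eBayes with an intensity trend), and p-values were Benjamini-Hochberg adjusted over the 27307 tested, two-sided. SE and 95% intervals came from this fit. The procedure was tested on simulated data. For all 9 measured members the gene identifier still gave the same symbol in RefSeq. Members and gene lists were chosen with earlier results of these data known. All members are named, and of the wider list the 6 of lowest p by the brightest tested probe set, besides HSP90AA1 and RIF1. The change test of GCOS was not rerun. Same-numbered arrays were compared by the correlation of their deviations from group means, which was 0.114, 0.0805 and 0.0702 for numbers 1 to 3. Between arrays of different number it lay between -0.0842 and 0.00531. The titles do not state a pairing, so the main fit did not treat numbers as pairs, and a replicate block was run as an alternative. At most 0.297% of values were identical in any of 15 pairs of arrays.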

Additional observations from a re-analysis of the deposited data

How the results depend on the processing

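Under each alternative run (quantile normalization, median centring, an offset of 16, no filter, a filter at the 75th percentile, no intensity trend, a replicate block, leaving out single arrays, and the methods' t-test), 0 member probe sets passed. The median difference of the tested members, -0.0010, became -0.05 with median centring, where that over all tested probe sets became -0.04. With an array left out the median of the members lay between -0.07 and 0.02. Of the 15 tested members 6 kept their sign under the other scalings and without each of the 6 arrays. TERF2 1555185_x_at kept its sign too, but passed the filter in only 3 of those 6 fits. Another scaling changed the sign of 4 members, each near 0. Chosen after seeing the data, an offset of 16 with no filter gave TERT 207199_at an adjusted p of 0.408. Over all probe sets the 108 calls became 30 with no filter, 192 with the filter at the 75th percentile, 464 with the replicate block, 0 with no intensity trend, 3065 with the methods' t-test unadjusted and 0 with it adjusted, and lay between 19 and 70 with an array left out. Without the trend 3130 had an unadjusted p under 0.05. NME2 kept its difference of -2.78 but missed the threshold with no intensity trend (adjusted p = 0.228) and with the adjusted t-test (0.204). By brightest tested probe sets, 0 genes of the wider telomere list passed, 1 with the replicate block and 8 with the unadjusted t-test. With the block that gene was CBX5 (limma adjusted p = 0.0438), where 2.29% of all tested genes passed. The faintest probe set of HSP90AA1 also passed with the block, at a difference of -0.35 (limma adjusted p = 0.0278). It missed the threshold in the main fit (limma adjusted p = 0.0612). The brightest HSP90AA1 probe set differed by -0.13 and did not pass with the block (limma adjusted p = 0.185). NHP2 had unadjusted limma p-values of 0.0337, 0.0276 and 0.02 with quantile normalization, median centring and the replicate block, and adjusted ones of 0.328, 0.354 and 0.203. Each array's deviations correlated best with those of its own number, which is a hint from the data and not the design.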
